A study of Homo sapiens with 24 samples.

Results

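The transcription factor gene ZNF503, its paralog ZNF703, and the noncoding genes ZNF503-AS1 and ZNF503-AS2 next to ZNF503 were followed through bulk RNA sequencing counts of heart cells made from human embryonic stem cells. They were found in the deposited table by Ensembl identifier, ENSG00000165655.17, ENSG00000183779.7, ENSG00000226051.10 and ENSG00000237149.5 in that order, and are 4 of its 62757 genes. The 24 libraries came from HES3, an established embryonic stem cell line with a GFP reporter at NKX2-5 and an mCherry reporter at NR2F2, which was grown for up to 14 days as embryoid bodies under a protocol that modulates Wnt signalling. They formed 8 groups of 3, each a combination of a protocol and a gene edited with CRISPR-Cas9: LHX2, ZNF503, ZNF711 or the control TRAC, a T cell receptor gene. AM is not spelled out in the labels and is read here as the atrial protocol, with retinoic acid added at day 4. VM is read as the ventricular protocol without retinoic acid. Every group, TRAC included, was edited and carried both reporters. Whether an edited line was 1 clone or a pool, where its guide cut, and whether replicates were separate cultures is not given in the sources used here, so p-values measure only the spread between these libraries.

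ZNF503 and ZNF703 belong to the NET (or Nlz) family of zinc finger proteins, which bind little DNA themselves and act mainly as repressors inside larger complexes. They recruit corepressors of the Groucho (TLE) family and histone deacetylases, and share with SP transcription factors a short motif near the start of the protein. The family is known from patterning of the hindbrain, the closing of the optic fissure and the limb, and ZNF703 from luminal breast cancer, where its region is often amplified. Antisense and intergenic genes named after a neighbour, such as ZNF503-AS1 and ZNF503-AS2, are transcribed from the opposite strand, and their names say nothing of function.

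Depth was 2899786 to 7438010 counts per library, with a median of 5113566.5. Levels are given as CPM, the gene's count scaled to a common library total, and 3 counts, taken as the detection floor, equalled 0.447 to 0.963 CPM. Over all 24 libraries ZNF503 had 10592 counts, between 43 and 2003 in a library. ZNF703 had 8077 counts, between 88 and 1118, and ZNF503-AS2 had 721, between 4 and 109. ZNF503-AS1 had 70, between 0 and 8, and is described by its counts alone, since it did not pass the filter on low counts that left 17724 genes to test. The other 3 members passed it. Markers of cardiomyocytes, the cell type in the labels, were present in every group, and the 13 genes of that list summed to 15282 to 30353 CPM in AM libraries and 11933 to 42509 CPM in VM libraries.

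In GENCODE release 29 on GRCh38, ZNF503 lies on the minus strand at chr10:75397830-75401906 with 2 exons and 3347 exonic bases. ZNF503-AS2 lies on the plus strand at chr10:75401519-75408982, is annotated as antisense, and has 5 merged exons of 3348 bases. Its first exon runs across the first exon of ZNF503, and 388 exonic bases, 11.6% of each gene, belong to both. Strandedness of the libraries and of the counting is not given in the sources used here, so reads of ZNF503 and ZNF503-AS2 in those bases cannot be told apart. ZNF503-AS1 lies on the plus strand at chr10:75269819-75373500, is annotated as a long intergenic noncoding RNA with 15 merged exons of 3426 bases, and ends 24329 bases from ZNF503. ZNF703 lies on chromosome 8, from 37695751 to 37700021 on the plus strand, with 2 exons of 3349 bases. The spliced RNAs of the paralogs share little sequence. Their longest identical stretch is 26 bases, 2 of 3323 windows of 25 bases of ZNF503 occur in ZNF703, and 0 of 3298 windows of 50 bases do.

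**Figure D1:**
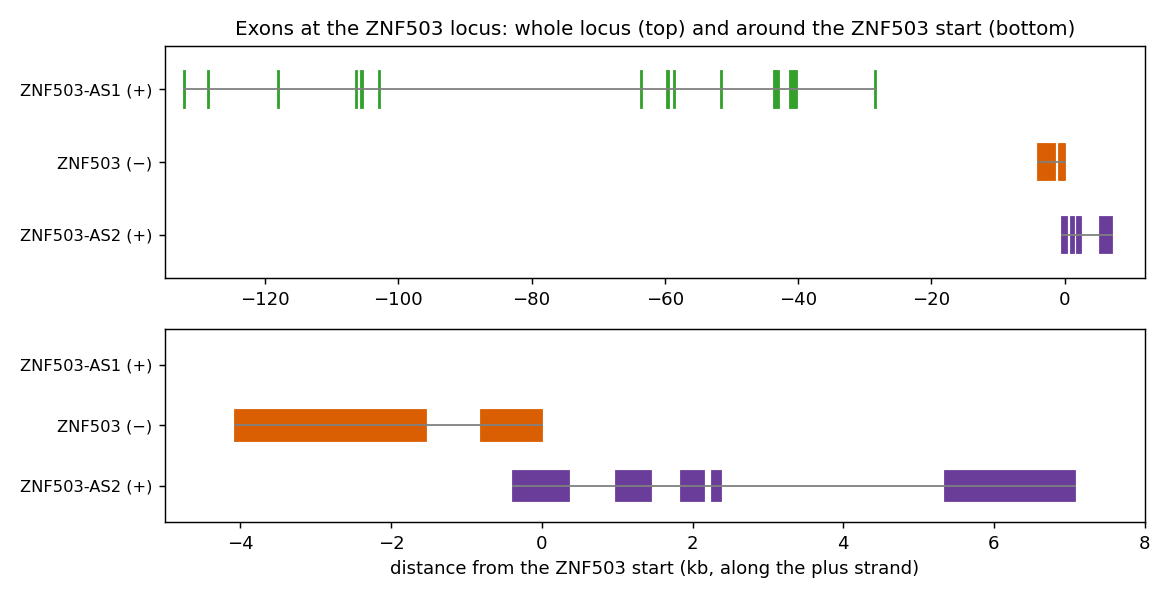
Map of the exons (boxes) of ZNF503-AS1, ZNF503 and ZNF503-AS2 in GENCODE release 29, with the x axis giving distance from the ZNF503 start in kb along the plus strand. The upper panel shows the whole locus and the lower panel the region around the ZNF503 start, where the first exons of ZNF503 and ZNF503-AS2 cover the same 388 bases.

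The table holds 2 windows for ZNF503, 1 for ZNF503-AS1 and 6 for ZNF503-AS2. The 250 bases before 1 annotated start of each chromosome 10 member are shown because these genes were higher in the protocol with retinoic acid, described next, and because the paired genes ZNF503 and ZNF503-AS2 start close together. For ZNF503 this is the outermost start, and for ZNF503-AS2 the first whose window lies outside the exons of ZNF503. They are RefSeq sequences on GRCh38.p14, read 5′ to 3′ along the strand of the gene, at chr10:75401917-75402166 (minus strand) for ZNF503, chr10:75296133-75296382 (plus strand) for ZNF503-AS1 and chr10:75402647-75402896 (plus strand) for ZNF503-AS2. Capitals mark GGGCGG, the GC box bound by SP factors, and AGGTCA, the core motif of retinoic acid receptors, on either strand.
ZNF503: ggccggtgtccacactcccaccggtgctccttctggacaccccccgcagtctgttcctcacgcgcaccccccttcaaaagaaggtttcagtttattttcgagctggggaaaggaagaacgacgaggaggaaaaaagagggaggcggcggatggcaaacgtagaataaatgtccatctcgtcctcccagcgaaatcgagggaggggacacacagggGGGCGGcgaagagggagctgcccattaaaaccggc
ZNF503-AS1: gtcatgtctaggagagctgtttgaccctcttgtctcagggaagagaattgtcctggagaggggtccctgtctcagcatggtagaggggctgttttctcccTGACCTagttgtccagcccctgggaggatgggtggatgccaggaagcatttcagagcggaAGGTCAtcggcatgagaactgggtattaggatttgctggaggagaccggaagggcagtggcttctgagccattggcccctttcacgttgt
ZNF503-AS2: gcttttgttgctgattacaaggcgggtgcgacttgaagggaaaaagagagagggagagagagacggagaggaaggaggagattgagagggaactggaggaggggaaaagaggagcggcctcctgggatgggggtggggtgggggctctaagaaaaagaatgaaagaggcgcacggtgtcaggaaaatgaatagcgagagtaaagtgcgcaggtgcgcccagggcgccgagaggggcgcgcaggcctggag
The ZNF503 window held 1 GC box, 35 bases before the start, and no AGGTCA. The ZNF503-AS1 window held 2 AGGTCA motifs on opposite strands and no GC box, and the printed ZNF503-AS2 window held neither. The other ZNF503 window held 1 GC box, 187 bases before its start. Of the 5 other ZNF503-AS2 windows, 2 held GC boxes: 1 box, 57 bases before the start at 75401528, where GC content was 75.2%, and 2 boxes before the start at 75403877. No window of ZNF503 or ZNF503-AS2 held an AGGTCA. Of 35116 promoter windows of this length, 42.6% held a GC box and 12.1% an AGGTCA. The marked matches do not overlap. None of the 3 windows held TATAAA, the TATA box, which 10.7% of all windows held. GC content was 58.4%, 55.2% and 58.4% in the order shown, against a median of 58.0% over all windows. These are matches of letters in short windows, and say nothing of binding here or of sites elsewhere in the locus.

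The first comparison asked how the members differ between the protocols, and TRAC control libraries were compared first. ZNF503 was 8.37-fold higher in AM than in VM, ZNF703 3.55-fold and ZNF503-AS2 3.01-fold. ZNF503-AS1 was counted in all 12 AM libraries and in 6 of 12 VM libraries.

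ZNF503, the transcriptional repressor, had 103, 111 and 123 CPM in AM TRAC replicates 1, 2 and 3, and 8.82, 14.6 and 16.2 CPM in VM TRAC. The lowest AM control was thus several times the highest VM control. The log2 fold change was 3.07 (SE 0.29, 95% interval of the fold 5.52 to 12.7, edgeR adjusted p = 1.00e-07). ZNF703, the paralog, had 75.7, 104 and 85.5 CPM in AM TRAC against 18.1, 25.6 and 30.4 CPM in VM TRAC, again without overlap. Its log2 fold change was 1.83 (SE 0.22, 95% interval of the fold 2.60 to 4.85, edgeR adjusted p = 1.81e-06). ZNF503-AS2 was scarce. Its levels were 7.05, 8.12 and 6.92 CPM in AM TRAC and 2.26, 2.68 and 2.38 CPM in VM TRAC, with no overlap and a log2 fold change of 1.59 (SE 0.44, 95% interval of the fold 1.61 to 5.66, edgeR adjusted p = 0.0168). That call was lost without replicate 3 of every group (1.62, edgeR adjusted p = 0.0605), a setting chosen after seeing the data, and without AM TRAC replicate 2 (0.0666) or VM TRAC replicate 3 (0.0555). All 3 tested members were therefore called higher, where 7.06% of the 17724 genes were, and 14.3% of genes had AM TRAC libraries all above VM TRAC libraries.

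The difference recurred under each edited gene, in libraries that are not shared between these comparisons. For ZNF503 the AM minus VM log2 fold change was 2.96 (SE 0.30, edgeR adjusted p = 3.87e-07) in LHX2 libraries, 2.88 (SE 0.30, 4.08e-07) in ZNF711 libraries and 3.06 (SE 0.27, 3.25e-08) in ZNF503 libraries. For ZNF703 it was 1.63 (SE 0.22, edgeR adjusted p = 1.62e-05), 1.65 (SE 0.22, 1.24e-05) and 2.21 (SE 0.21, 7.36e-08) in the same order. Between 4.87% and 7.16% of genes were called higher in AM in these comparisons, 4.87% in LHX2, 7.16% in ZNF711 and 5.11% in ZNF503 libraries. ZNF503-AS2 was called in ZNF711 libraries (1.97, SE 0.51, edgeR adjusted p = 0.0103) and in ZNF503 libraries (2.43, SE 0.39, 1.03e-04). In LHX2 libraries it was not (1.58, SE 0.53, edgeR adjusted p = 0.0655), but was with the replicate number as a block (1.59, edgeR adjusted p = 0.0269). It was also called without VM LHX2 replicate 1 (2.30, edgeR adjusted p = 0.0329), VM ZNF503 replicate 2 (1.59, 0.0467) or VM ZNF503 replicate 3 (1.58, 0.0492). The ZNF711 call of ZNF503-AS2 was lost without replicate 3 of every group (1.49, edgeR adjusted p = 0.120), without AM ZNF711 replicate 2 (1.80, 0.0576) or without VM ZNF711 replicate 3 (1.64, 0.0696), and its value was 2.92 without VM ZNF711 replicate 2. The value in ZNF503 libraries was 3.25 without VM ZNF503 replicate 2.

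Each of the 12 AM libraries had more ZNF503 than each of the 12 VM libraries, and the same held for ZNF703. ZNF503 ranged from 70.7 to 367 CPM in AM, with a median of 114, and from 8.65 to 45.3 CPM in VM, with a median of 15.4. ZNF703 ranged from 64.8 to 205 CPM in AM, with a median of 91.8, and from 18.1 to 37.0 CPM in VM, with a median of 28.2. ZNF503-AS2 overlapped, since its lowest AM library had 4.30 CPM and its highest VM library 5.72 CPM. Such complete separation held for 477 genes, 2.69% of those tested.

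ZNF503-AS1 had 5, 6 and 8 counts in the AM controls, 8, 3 and 4 in AM ZNF503, 4, 6 and 1 in AM LHX2 and 1, 8 and 7 in AM ZNF711. In VM it had 1, 0 and 1 counts in TRAC, 2, 0 and 2 in LHX2, 0, 0 and 1 in ZNF711, and 0, 0 and 2 in ZNF503. No VM library exceeded the floor of 3 counts, so no fold is given, and a VM library with 0 counts allows a level of up to 3 counts, by counting error only.

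Because the 4 genes have nearly equal exonic lengths, their levels can be compared per kilobase. In AM TRAC, ZNF503 had 33.6 CPM per kb (SD 2.93, n = 3), ZNF703 26.4 (SD 4.28), ZNF503-AS2 2.20 (SD 0.196) and ZNF503-AS1 0.321 (SD 0.0907). In VM TRAC the order of the paralogs was the other way round, with ZNF703 at 7.37 CPM per kb (SD 1.86) and ZNF503 at 3.96 (SD 1.17), while ZNF503-AS2 had 0.729 (SD 0.0651). The ratio of ZNF703 to ZNF503 counts was 0.789 in AM TRAC (SD 0.131, n = 3) and 1.89 in VM TRAC (SD 0.151, n = 3), without overlap of the libraries. In bulk RNA, fewer cells that express a gene and less of its RNA per cell cannot be told apart.

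**Figure D2:**
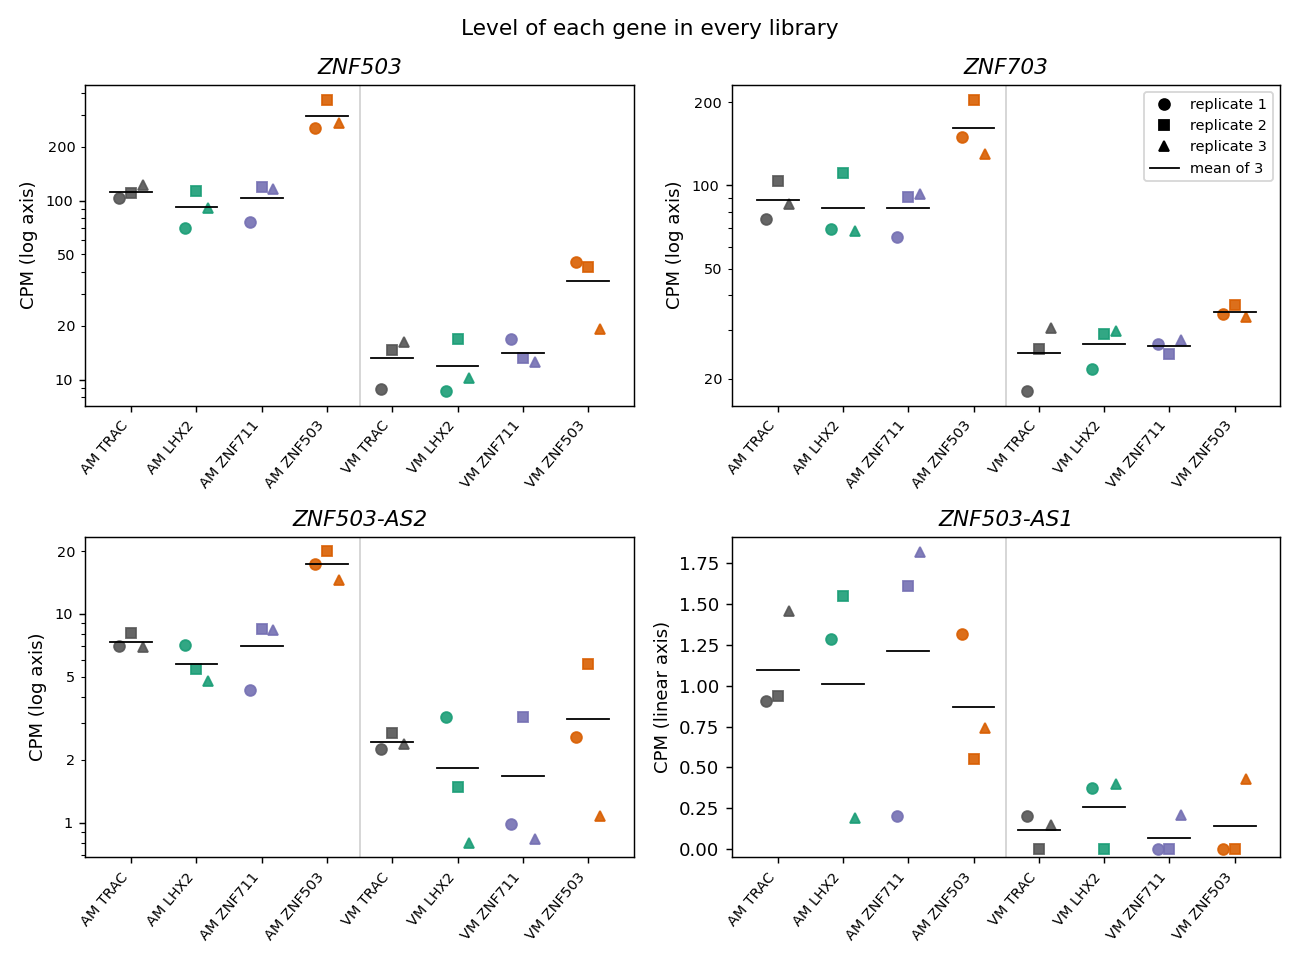
Level in CPM of ZNF503, ZNF703, ZNF503-AS2 (log axes) and ZNF503-AS1 (linear axis) in each of the 24 libraries, by protocol and edited gene, with 1 symbol per replicate number and a bar at the mean of 3. ZNF503 and ZNF703 are higher in all 12 AM libraries than in any VM library, and higher in the libraries labelled ZNF503 than in the 9 others of the same protocol.

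Other cell populations also differed between the AM and VM controls, on the summed CPM of marker lists. Fibroblast markers (8 genes) summed to 5713 to 7030 in AM TRAC and 1710 to 4921 in VM TRAC, and endothelial markers (8 genes) to 585 to 827 against 410 to 476. Endoderm markers (10 genes) went the other way, with 308 to 961 in AM TRAC and 2328 to 18244 in VM TRAC. No gene of these 3 lists was at 0 in all libraries of either group. Their part in the differences of the ZNF503 genes was not tested.

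The second comparison asked whether ZNF503 RNA and its relatives differed in the libraries labelled ZNF503 from the TRAC controls. ZNF503 RNA was higher there and not lower, by 2.64-fold in AM and 2.66-fold in VM. ZNF703 was 1.82-fold higher in AM and 1.40-fold in VM, and ZNF503-AS2 2.33-fold higher in AM. In the main fit, which did not pair libraries by replicate number, ZNF503 averaged over the protocols was the only one of 17724 genes called. With the replicate number as a block, ZNF503 and ZNF703 were called in AM and in the average. Counts per gene do not show whether a reading frame was broken, so these libraries are named by their label throughout.

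In AM, the libraries labelled ZNF503 had 255, 367 and 269 CPM of ZNF503, and each of the 9 other AM libraries had between 70.7 and 123 CPM. In VM they had 45.3, 42.7 and 19.1 CPM, while the 9 others had between 8.65 and 16.8 CPM. Replicate 3 of VM ZNF503 stood closest to the rest, and neither protocol showed overlap. ZNF503 counts behind these values were 1548, 2003 and 1451 in AM and 193, 209 and 89 in VM. Against TRAC, the log2 fold change was 1.40 in AM (SE 0.24, 95% interval of the fold 1.86 to 3.75, edgeR adjusted p = 0.130) and 1.41 in VM (SE 0.30, 95% interval of the fold 1.72 to 4.11, edgeR adjusted p = 1). ZNF503 had the lowest p of all tested genes in each protocol, yet passed the adjusted threshold in neither. Averaged over both protocols, with 6 libraries against 6, the log2 fold change was 1.41 (SE 0.19, a 2.65-fold difference with a 95% interval of 2.01 to 3.50, edgeR adjusted p = 0.00413). That was 1 gene called, or 0.00564% of those tested, and 1.99% had an unadjusted p below 0.05.

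The call for the averaged comparison was kept in each of the 24 fits that left out 1 library, with log2 fold changes of 1.30 to 1.56 and edgeR adjusted p from 3.42e-05 to 0.0415. It was also kept without replicate 3 of every group (1.72, edgeR adjusted p = 0.00547). It was lost when the fit held only the TRAC and ZNF503 libraries (1.41, edgeR adjusted p = 0.0716). Without replicate 3 of VM ZNF503, both single protocols were called as well, AM with 1.40 (edgeR adjusted p = 0.00505) and VM with 1.72 (0.0297). With the replicate number as a block, AM was called (1.38, edgeR adjusted p = 0.0128) and VM was not (1.40, edgeR adjusted p = 1).

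By edgeR, 0 genes were called in AM and 0 in VM (0% each), with 434 (2.45%) and 344 (1.94%) at an unadjusted p below 0.05. DESeq2 called 1 gene in each, and in both it was ZNF503 (1.40, DESeq2 adjusted p = 0.00727 in AM; 1.42, DESeq2 adjusted p = 0.0320 in VM). The size of the ZNF503 difference in AM minus that in VM was -0.01 (SE 0.32, 95% interval -0.68 to 0.66 on the log2 scale). No gene was called for that difference by DESeq2 or by edgeR with its filter on low counts (4 without it, no member among them), and 444 genes, 2.51%, had an unadjusted p below 0.05.

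ZNF703 followed in the same libraries. In AM the libraries labelled ZNF503 had 149, 205 and 130 CPM of ZNF703, above all 9 others, which had 64.8 to 111 CPM. In VM they had 34.3, 37.0 and 33.3 CPM, above the 9 others at 18.1 to 30.4 CPM. The gap was thus narrower in VM. Against TRAC the log2 fold change was 0.87 in AM (SE 0.20, 95% interval of the fold 1.37 to 2.42, edgeR adjusted p = 1), the second lowest p of all genes, and 0.49 in VM (SE 0.23, edgeR adjusted p = 1). Averaged over protocols it was 0.68 (SE 0.15, edgeR adjusted p = 0.906), the third lowest p. With the replicate number as a block, ZNF703 was called in AM (0.87, edgeR adjusted p = 0.0128) and in the average (0.67, edgeR adjusted p = 0.0177), where ZNF503 and ZNF703 were the 2 genes called in each. The AM and VM differences of ZNF703 were not separated (0.38, SE 0.30, 95% interval -0.24 to 1.01).

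ZNF503-AS2 had 17.3, 19.95 and 14.5 CPM in AM ZNF503, above all 9 other AM libraries, which had 4.30 to 8.46 CPM. In VM ZNF503 it had 2.58, 5.72 and 1.07 CPM, which overlapped the 0.8005 to 3.20 CPM of the others. Its log2 fold change against TRAC was 1.22 in AM (SE 0.32, 95% interval of the fold 1.48 to 3.67, edgeR adjusted p = 1), the fifth lowest p, and 0.38 in VM (SE 0.54, edgeR adjusted p = 1). The VM value rested on replicate 2 and was -0.43 without it. The difference between protocols was 0.84 (SE 0.63, 95% interval -0.47 to 2.15).

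Non-overlap with all other libraries of the protocol was uncommon. In AM it held for ZNF503, ZNF703 and ZNF503-AS2 and for 62 genes in all, 0.35% of those tested. In VM it held for ZNF503 and ZNF703 and for 29 genes in all, 0.164%. Against TRAC alone, 4.54% of genes in AM and 2.03% in VM had the ZNF503-labelled libraries all above the controls.

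**Figure D3:**
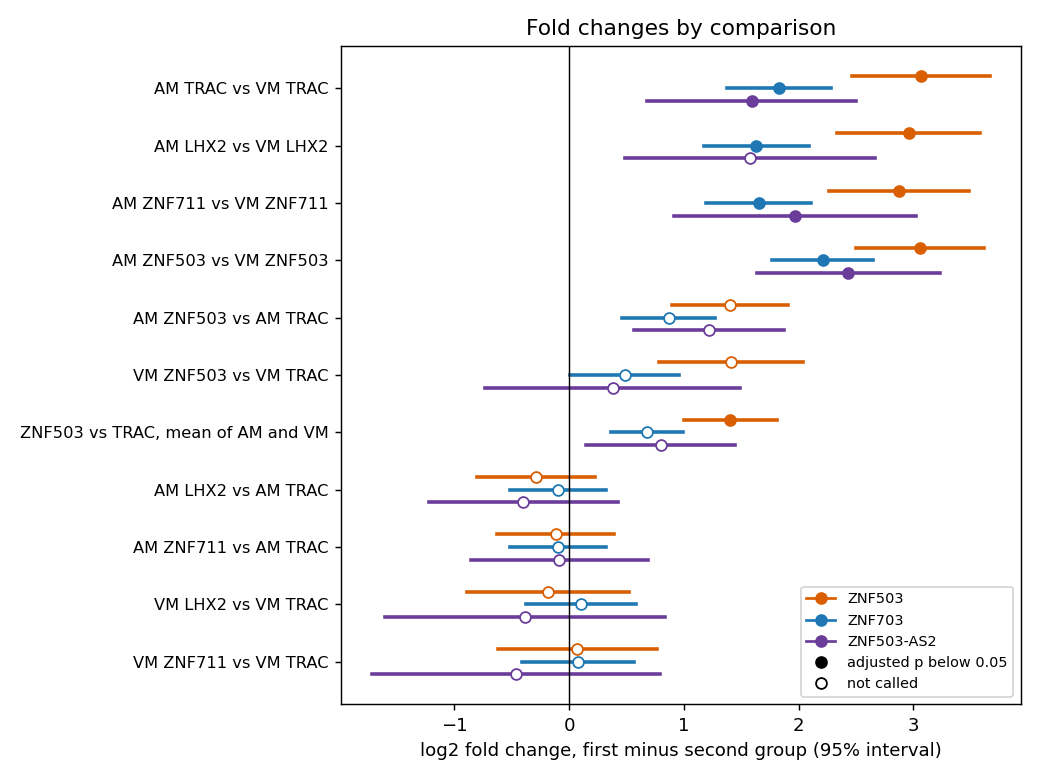
Log2 fold changes (x axis) of ZNF503, ZNF703 and ZNF503-AS2 in 11 comparisons (y axis), with 95% intervals as lines and filled points where the edgeR adjusted p was below 0.05. ZNF503 and ZNF703 are called higher in AM under each edited gene and ZNF503-AS2 under 3 of the 4, ZNF503 is 1.41 higher on the log2 scale in the averaged ZNF503 comparison, and the LHX2 and ZNF711 groups lie between -0.46 and 0.10 of TRAC.

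In libraries labelled LHX2 or ZNF711 no member was called against TRAC of the same protocol. Their 12 log2 fold changes ran from -0.46 to 0.10, each with a 95% interval that included 0. Those of ZNF503-AS2 in VM rested on few counts, and were -1.41 in ZNF711 without its replicate 2 and -1.10 in LHX2 without its replicate 1. ZNF503, for example, was at -0.29 in AM LHX2 (SE 0.25, 95% interval -0.80 to 0.23) and 0.07 in VM ZNF711 (SE 0.33, 95% interval -0.62 to 0.76). In these comparisons edgeR called 0 genes in AM LHX2, AM ZNF711 and VM LHX2 (0% each), with 1485 (8.38%), 743 (4.19%) and 614 (3.46%) at an unadjusted p below 0.05. DESeq2 called 22, 0 and 1 there. In VM ZNF711 edgeR called 22 genes, 0.124%, and 10.3% of genes had an unadjusted p below 0.05. The order of the ZNF503 level was AM ZNF503 (mean 297 CPM, SD 60.7), AM TRAC (112, SD 9.79), AM ZNF711 (104, SD 24.3), AM LHX2 (91.7, SD 21.2), VM ZNF503 (35.7, SD 14.4), VM ZNF711 (14.2, SD 2.31), VM TRAC (13.2, SD 3.91) and VM LHX2 (11.9, SD 4.32), with n = 3 each. The libraries of AM TRAC, ZNF711 and LHX2 overlapped, as did those of VM ZNF711, TRAC and LHX2.

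The balance of the paralogs also differed between groups, without a test. Within AM, the ratio of ZNF703 to ZNF503 counts was 0.542 in the libraries labelled ZNF503 (SD 0.0532, n = 3), whose highest value of 0.586 lay below the lowest of the 9 other AM libraries, 0.696. In VM it was 1.12 (SD 0.540, n = 3), and the range of 0.756 to 1.74 overlapped the other VM libraries, the lowest of which had 1.59. ZNF503-AS2 kept a more even proportion in AM. Its counts were 5.87% of those of ZNF503 in AM ZNF503 (SD 0.794, n = 3) and 6.59% in AM TRAC (SD 0.865, n = 3), with overlap. In VM the share was 19.5% in TRAC (SD 5.55, n = 3) and 8.24% in the libraries labelled ZNF503 (SD 4.47, n = 3), on few counts of ZNF503-AS2.

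**Figure D4:**
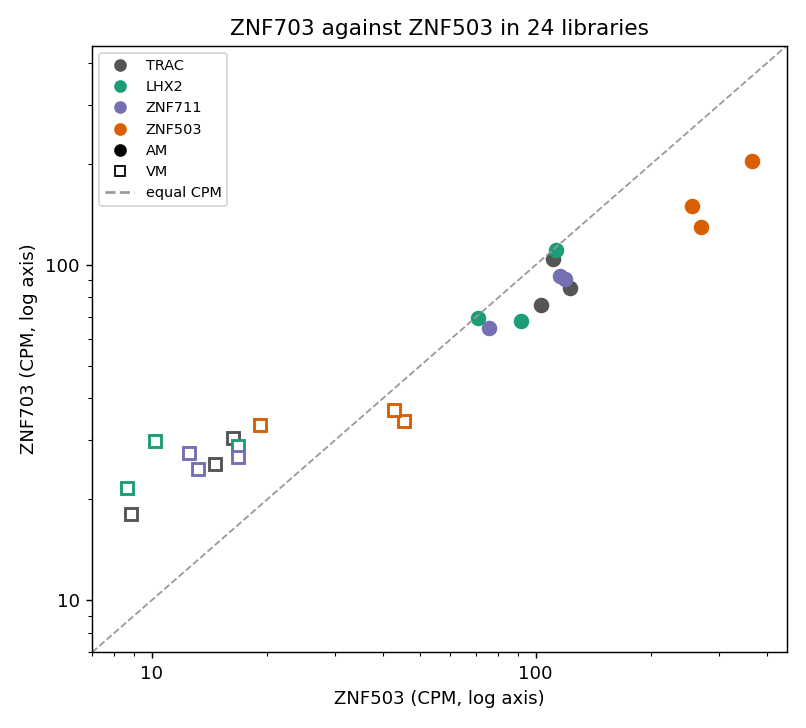
ZNF703 against ZNF503, both in CPM on log axes, for 24 libraries, coloured by edited gene with filled circles for AM and open squares for VM, and a dashed line at equal CPM. The VM libraries sit low and mostly above the line, most AM libraries sit near or below it, and the AM libraries labelled ZNF503 lie farthest right at 255 to 367 CPM of ZNF503.

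Over all 24 libraries, ZNF703 was the one of 17723 other tested genes whose level followed ZNF503 most closely. Pearson's r of log2 CPM was 0.97 over the 24 libraries, and 0.86 after the mean of each protocol was removed, rank 1 in both. These values describe points that share the protocol, the edited gene and the sequencing, and all genes with a protocol difference correlate in the first measure, where 1% of genes exceeded 0.85. Without the 6 libraries labelled ZNF503, r was 0.98 and 0.71 (n = 18), and the rank of ZNF703 was 2 and 99. The rank with protocol means removed thus rested on those libraries, while the other hardly moved. Within a protocol, r of ZNF503 and ZNF703 was 0.94 in AM and 0.80 in VM (n = 12 each, Spearman 0.84 and 0.78). Without the libraries labelled ZNF503 it was 0.78 and 0.68 (n = 9 each, Spearman 0.63 and 0.50). With group means removed it was 0.82 and 0.62, which leaves the spread among replicates, whose numbers are shared between groups.

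ZNF503-AS2 ranked 58 over the 24 libraries (r = 0.89) and 19 with protocol means removed (r = 0.63). The second value was 0.030 without the libraries labelled ZNF503. Within VM its r with ZNF503 was 0.37, and -0.17 without those libraries, while in AM it was 0.92 and 0.53.

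After ZNF703, the genes most like ZNF503 over the 24 libraries were TLN2, a talin that links integrins to actin (0.94), ADCY5, the main adenylyl cyclase of heart muscle (0.93), COL6A2, a chain of collagen VI (0.93), and KCNG1, a modifying potassium channel subunit (0.93). The lowest values were those of GPRIN3 (-0.92), LOXL2, a lysyl oxidase that crosslinks collagen (-0.90), and CAV1, the coat protein of caveolae (-0.90). With protocol means removed the next genes were SNORA49, a small nucleolar RNA (0.74), CUEDC1 (0.69), PORCN, which adds the lipid to Wnt proteins (0.68), and SUGP1, a splicing factor (0.68). The lowest were C1GALT1, an enzyme of O-glycan synthesis (-0.76), PTPN3, a tyrosine phosphatase (-0.75), and ADD3, an adducin of the membrane skeleton (-0.72). Without the libraries labelled ZNF503, SNORA49 and CUEDC1 were at 0.73 and 0.69 in this measure, PORCN at 0.47 and SUGP1 at 0.25. C1GALT1, PTPN3 and ADD3 were at -0.46, -0.37 and -0.54 there. Some of these genes followed ZNF503 unevenly within the protocols. ADCY5 was at 0.19 in AM and 0.77 in VM, CUEDC1 at 0.35 and 0.92, and LOXL2 at -0.65 and -0.22. SNORA49 was scarce, with a mean log2 CPM of 0.87.

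**Figure D5:**
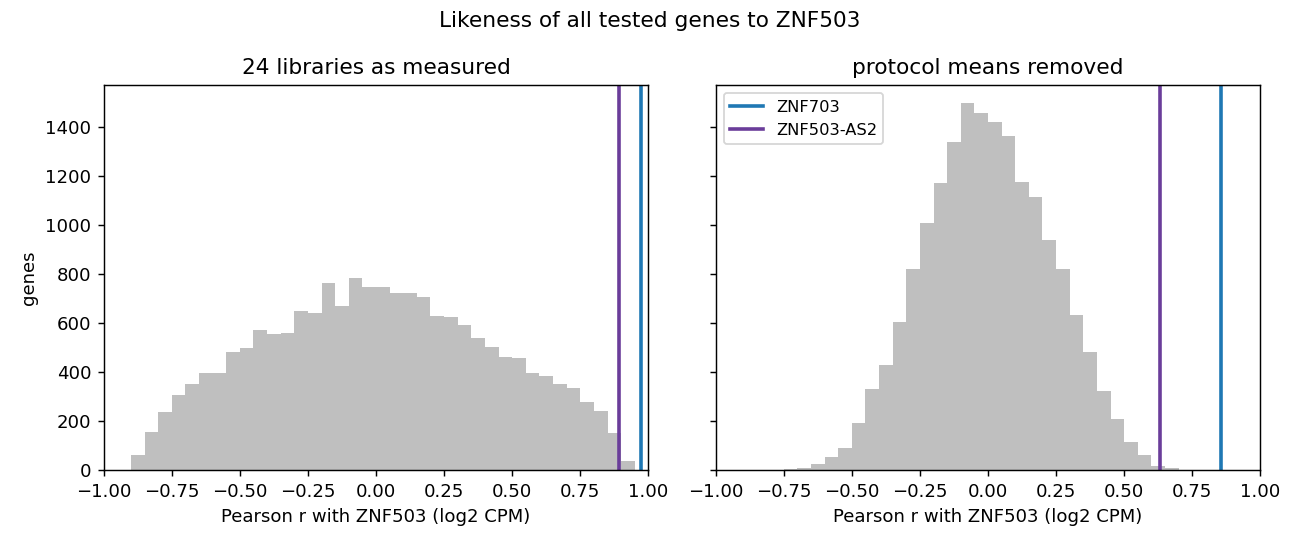
Number of genes (y axis) by their Pearson r with ZNF503 in log2 CPM (x axis), over 24 libraries as measured (left) and with protocol means removed (right), with lines at ZNF703 and ZNF503-AS2. ZNF703 has the highest r in both panels, 0.97 and 0.86.

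Genes that the family works with were then described from lists. Genes of the TLE family, which includes corepressors that the NET family binds, were all expressed. They summed to 608 to 645 CPM in AM TRAC and 410 to 575 CPM in VM TRAC. TLE5 made up the largest part, with a mean of 326 CPM in AM TRAC and 262 CPM in VM TRAC. Of 6, only TLE2 was called higher in AM TRAC (77.8 against 47.9 CPM, log2 fold change 0.69, edgeR adjusted p = 9.77e-04), and none lower. Of 10 other corepressors and partners, including HDAC1, HDAC2 and NCOR1, only RCOR1, a subunit of the CoREST complex, was called, lower in AM (95.03 against 128 CPM, -0.44, edgeR adjusted p = 0.0443). Of 7 tested SP factors none was called. The medians of the 3 lists were 0.31, 0.18 and 0.17 on the log2 scale, against -0.03 over all genes, of which 13.3% were called, 7.06% higher and 6.23% lower.

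No reported target of the family was called. TGFBR2, a receptor of TGF-beta that ZNF703 is reported to repress, had 48.8 CPM in AM TRAC and 45.6 in VM TRAC, and its log2 fold change between the libraries labelled ZNF503 and TRAC was -0.12 averaged over protocols (SE 0.12). GATA3, RARB and CDH1 had 0.08 (SE 0.23), 0.06 (SE 0.19) and -0.09 (SE 0.23) in that comparison. None of these 4 was called there or between protocols, and PAX2 was too low to test.

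Genes of the retinoic acid response, in which the protocols differ by design, were called between protocols and not between the libraries labelled ZNF503 and TRAC. Between AM and VM TRAC, 5 of 13 were called higher and 2 lower, where 7.06% and 6.23% of all tested genes were. NR2F1 and NR2F2, orphan nuclear receptors of atrial identity, had 174 against 1.51 CPM and 460 against 30.2 CPM, and the T-box factor TBX5 158 against 70.0 CPM. HOXB1, a homeobox gene of the hindbrain, was also higher, at 3.37 CPM in AM against 0.530 CPM in VM. CYP26C1 and CYP26A1, which degrade retinoic acid, were lower, with 2.09 against 26.6 CPM and 0.156 against 1.79 CPM, the latter near the floor. In AM ZNF503 the levels of NR2F1, NR2F2 and TBX5 were 184, 399 and 139 CPM. None of the 13 was called against TRAC, and the median log2 fold change was -0.05 in AM and 0.00 in VM.

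No neighbour on the chromosomes was called higher in AM. The nearest, LRMDA, starts 29.55 kb from ZNF503, and had 10.02 CPM in AM TRAC and 5.80 in VM TRAC (0.84, edgeR adjusted p = 0.169), with 0.07 (SE 0.28) in the averaged ZNF503 comparison. Of 9 tested neighbours of ZNF503, none was called higher in AM TRAC, where 7.06% of all tested genes were. Called lower were 2, against 6.23% of all tested genes. These were ADK, adenosine kinase (14.6 against 29.1 CPM, edgeR adjusted p = 0.00524), and DUSP13, which was near the floor (0.242 against 1.67 CPM). Of 9 tested neighbours of ZNF703, only UNC5D, a netrin receptor, was called, lower in AM (7.73 against 20.8 CPM, -1.43, edgeR adjusted p = 0.0271). None of the 18 was called in a ZNF503 comparison.

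Genes of the cell type lists were called between the protocols, not all of them in the direction of their list. Between the AM and VM controls, genes called higher and lower were 7 and 0 of 9 atrial, 1 and 5 of 8 ventricular, 1 and 5 of 13 cardiomyocyte, 3 and 1 of 7 second heart field, 4 and 0 of 7 sinus and pacemaker, 3 and 0 of 7 epicardial, and 4 and 0 of 8 fibroblast genes. They were 2 and 0 of 6 smooth muscle, 5 and 0 of 8 endothelial, 1 and 5 of 10 endoderm, 2 and 0 of 6 neural and 0 and 2 of 5 pluripotency genes. Over all tested genes the shares were 7.06% higher and 6.23% lower. KCNA5, the atrial potassium channel, had 63.5 against 11.3 CPM, and IRX4, a ventricular transcription factor, 1.53 against 114 CPM. MYL7 and NPPA of the atrial list were lower in AM, uncalled, with 584 against 1176 CPM and 5.48 against 14.1 CPM. KCNJ2 of the ventricular list was called higher in AM (40.8 against 7.50 CPM, 2.42, edgeR adjusted p = 4.64e-07). Atrial sums of the controls overlapped, at 1361 to 1981 CPM in AM and 1104 to 1642 in VM. No gene of the 19 lists was called between libraries labelled ZNF503 and TRAC, in AM, in VM, in the average or in the difference, by edgeR with its filter on low counts. Without that filter, MYH7, the slow myosin heavy chain of ventricular muscle (-1.21), and AFP, alpha-fetoprotein of endoderm (-0.58), were called lower in AM ZNF503 (edgeR adjusted p = 1.18e-07 and 8.53e-04). In VM that fit called AFP of the listed genes (-0.57, edgeR adjusted p = 0.00107). In the average it called AFP (-0.58), TTR, the liver protein transthyretin (-0.55), and MYH11, smooth muscle myosin (-1.15). In the AM minus VM difference it called MYH7 (-1.88, edgeR adjusted p = 1.29e-11). Fold changes of AFP and MYH7 hardly moved between the fits, but the SE was much smaller without the filter. AFP in AM had -0.57 (SE 1.01) with the filter, against an SE of 0.11 without it. AFP in VM had -0.54 (SE 0.98) with it, against an SE of 0.11 without. MYH7 in AM had -1.20 (SE 0.54) with it, against an SE of 0.18 without. With the filter, the median log2 fold changes of the 19 lists ran from -0.41 (smooth muscle) to 0.15 (second heart field) in AM, and from -0.40 (endoderm) to 0.26 (ventricular) in VM, where the median of all genes was -0.02.

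Sums of some marker lists did differ beside the higher ZNF503 RNA. Endothelial markers summed to 343 to 400 CPM in VM ZNF503 and 410 to 476 in VM TRAC, without overlap, and to 490 to 631 in AM ZNF503 and 585 to 827 in AM TRAC, with overlap. In the other edited groups they summed to 427 to 682 CPM in AM LHX2 and 447 to 511 in AM ZNF711. The latter also lay below AM TRAC, without overlap. In VM these sums were 372 to 476 CPM in LHX2 and 371 to 451 in ZNF711. Ventricular markers (8 genes) summed to 1474 to 2042 CPM in VM ZNF503 and 1103 to 1424 in VM TRAC, without overlap. They summed to 1423 to 1691 CPM in VM LHX2 and 902 to 1222 in VM ZNF711. MYH7 made up the largest part, with a mean of 885 CPM in VM ZNF503 and 553 in VM TRAC. All 8 genes had log2 fold changes above 0 in VM, and none was called with the filter. Second heart field sums in VM did not overlap either (119 to 139 CPM in ZNF503, 103 to 114 in TRAC). The same held in VM for the chromosomal neighbours of ZNF503 (579 to 587 against 537 to 569 CPM). In AM it held for the neighbours of ZNF703, which were lower (476 to 502 against 509 to 530 CPM). Non-overlap with TRAC was thus not particular to the marker lists. Cardiomyocyte sums overlapped, at 15282 to 21944 against 19061 to 22469 CPM in AM and 18627 to 40273 against 15787 to 42509 CPM in VM. Endoderm sums overlapped as well, at 249 to 770 against 308 to 961 CPM in AM and 1981 to 12259 against 2328 to 18244 CPM in VM. They were 361 to 923 CPM in AM LHX2 and 890 to 1755 in AM ZNF711. In VM they were 1172 to 6721 CPM in LHX2 and 6848 to 19443 in ZNF711. AFP made up most of the VM endoderm sums, with a mean of 4181 CPM in ZNF503 and 6064 in TRAC. Between libraries with the same replicate number, however, the endoderm and endothelial sums were lower in the library labelled ZNF503 in 3 of 3 pairs in AM and 3 of 3 in VM, at 0.672 to 0.855 of TRAC for endoderm and 0.763 to 0.963 for endothelial markers. Cardiomyocyte sums were lower in 3 of 3 pairs in AM and 1 of 3 in VM, and ventricular sums lower in 3 of 3 in AM and higher in 3 of 3 in VM. Atrial, second heart field, and sinus and pacemaker sums went the same ways as ventricular ones, also in 3 of 3 pairs. The TLE, other corepressor, neural and pluripotency sums were higher in 3 of 3 in VM. Agreement of 3 of 3 pairs in 1 protocol was thus not particular to the lists above. In VM no endothelial, ventricular, cardiomyocyte or endoderm gene was at 0 in all libraries of a group. In AM ZNF503, 1 ventricular gene was. Replicate 3 had the highest endoderm sum of its group in all 8 groups, and the ZNF503 difference without it is given above. The part of these populations in the ZNF503 result was not tested.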

How the data were processed

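Poly-A or ribosome-depleted RNA of 24 libraries was sequenced in bulk. The labels give polyA RNA as the molecule but RiboErase depletion as the library method. The values are gene counts as deposited by the authors, whole numbers that were not normalized. Reads were aligned with STAR to GRCh38, per the submitters' processing notes, and the counting program, strandedness and annotation release are not given in the sources used here. Every column matched a library, with 0 entries that were not genes. Libraries of a group differed by more than sampling noise (chi-square per degree of freedom 5.04 to 66.4).

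Genes were kept by filterByExpr (17724 of 62757) and given TMM scaling factors. They were tested in R 4.3.3 with edgeR 4.0.16, using robust quasi-likelihood fits with 1 mean per group over 24 libraries, 16 residual degrees of freedom and a biological coefficient of variation of 19.0%. In each of 12 comparisons p-values had Benjamini-Hochberg adjustment over every gene tested, and called means an adjusted p below 0.05. AM and VM comparisons with TRAC share the TRAC libraries with those between protocols. Log2 CPM used a prior count of 2, and likeness is Pearson's r over log2 CPM. Alternatives were DESeq2 1.42.0, other scalings and filters, only the groups compared, the older (legacy) edgeR fit, the replicate number as a block, and fits with 1 library removed. Chosen after seeing the data were a block within each protocol, LHX2 and ZNF711 libraries as controls, and leaving out replicate 3 throughout. The model was tested on simulated data.

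Same-numbered libraries deviated together (r 0.12 to 0.79 in 30 pairs over 11428 genes). The main fit did not use this pairing, and its p-values are unpaired. Only the alternatives with a block took numbers to pair the libraries. What a number stands for is not given in the sources used here. Members and the 19 gene lists were chosen with earlier results of these data known. The text names the members, list genes called between TRAC controls or in a ZNF503 comparison (at most 6 of the largest fold per list), and for likeness the 5 highest and 3 lowest genes with a symbol. Other genes were named after their values were seen, and some genes that the rule covers are not reported here. Gene positions are from GENCODE 29, whose identifier versions differ from the table for 3 of 4 members. Promoter windows are from RefSeq and were taken only for the 3 members on chromosome 10. Windows of ZNF703, on chromosome 8, were left out and not examined. Intervals are at 95%.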

Additional observations from a re-analysis of the deposited data

How the results depend on the processing

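Of 372 values of ZNF503, ZNF703 and ZNF503-AS2 in the settings that kept all libraries or all groups, 343 kept their direction and side of the threshold, 21 passed it anew, 3 lost it and 5 turned direction. Both paralogs stayed called between protocols in every setting and in every fit without 1 library. The cause of the changes below was not tested.

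Against TRAC in AM, ZNF503 passed without a filter (1.39), with DESeq2 (1.40), with only the groups compared (1.41), with LHX2 and ZNF711 libraries as controls (1.61) and in that setting with a replicate block (1.61). ZNF703 in AM passed without a filter (0.85), with those controls (0.96) and with them and the block (0.97). ZNF503-AS2 in AM passed only with them and the block (1.46). ZNF503 in VM passed without a filter (1.40) and with DESeq2 (1.42). Averaged over protocols, ZNF703 passed without a filter (0.66) and with other controls and the block (0.68), and ZNF503 was lost with only the groups compared (1.41). ZNF503-AS2 between protocols passed in LHX2 libraries with DESeq2 (1.62), and without replicate 3 of every group was lost in TRAC (1.62) and ZNF711 (1.49) libraries. Without the libraries labelled ZNF503, the centred r of ZNF503-AS2 moved from 0.63 to 0.030.

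In the paired fits, the replicate block gave 1.38 for ZNF503 and 0.87 for ZNF703 in AM, 0.67 for ZNF703 in the average and 1.59 for ZNF503-AS2 between LHX2 libraries, all newly called. A block within each protocol gave 1.39 and 0.86 in AM and 0.68 for ZNF703 in the average. With LHX2 and ZNF711 libraries as controls, adding the block newly called ZNF503-AS2 in AM (1.46) and ZNF703 in the average (0.68). The pairing changed no other call of a member.

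The AM minus VM difference of ZNF503, near 0, turned to 0.039 with a block within each protocol, and to 0.14 and 0.13 with other controls without and with the block. Without replicate 3, ZNF703 in AM LHX2 turned to 0.0096 and ZNF503 in VM LHX2 to 0.10. With 1 library left out, ranges were 1.22 to 1.50 for ZNF503 in AM, 1.20 to 1.72 in VM and -0.32 to 0.20 for their difference. For ZNF503-AS2 they were -0.43 to 0.80 in VM, and between protocols 1.22 to 2.30 (LHX2), 1.51 to 1.66 (TRAC) and 1.64 to 2.92 (ZNF711). The TRAC and ZNF711 calls were each lost without either of 2 libraries, and the LHX2 call was gained without any 1 of 3. Other ranges for ZNF503-AS2 were 2.02 to 3.25 between protocols in ZNF503 libraries, -1.10 to -0.028 in VM LHX2, -1.41 to -0.14 in VM ZNF711, 0.39 to 1.01 in the averaged ZNF503 comparison and 0.42 to 1.65 in the AM minus VM difference. Ranges that crossed 0 were -0.36 to 0.036 for ZNF703 in AM LHX2, -0.076 to 0.28 for ZNF703 in VM LHX2, -0.25 to 0.067, -0.20 to 0.053 and -0.28 to 0.18 for ZNF503, ZNF703 and ZNF503-AS2 in AM ZNF711, and -0.14 to 0.24 and -0.10 to 0.25 for ZNF503 and ZNF703 in VM ZNF711.

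Counts of called genes depended on the fit. Between AM and VM they rose with the block from 2356 to 3924 (TRAC), 1519 to 2849 (LHX2), 1675 to 2895 (ZNF503) and 2536 to 4341 (ZNF711), and were 1087 in TRAC with only the groups compared. Against TRAC, AM ZNF503 went from 0 to 2 with the block, 3 with only the groups compared, 5 with a block within each protocol, 4 with other controls, 24 with these and the block, and 14 without a filter. VM ZNF503 went from 0 to 1 with DESeq2, 2 with other controls and the block, and 3 without a filter. The average went from 1 to 2 with the block, 3 with a block within each protocol, 16 without a filter, 40 with other controls and the block, and 0 with only the groups compared. The difference between protocols went from 0 to 4 without a filter. AM LHX2 went from 0 to 111 without a filter, 219 with the block, 568 with a block within each protocol, 167 with only the groups compared and 22 with DESeq2. AM ZNF711 went from 0 to 113, 21, 141 and 14 in the first 4 of these, and 64 without replicate 3. VM LHX2 went from 0 to 160, 6 and 14 in the first 3, and 1 with DESeq2 or a filter of 1 CPM. VM ZNF711 went from 22 to 583, 533, 1564, 0 and 76 in the order of AM LHX2, 1098 without replicate 3, 4 with the 1 CPM filter and 3 with the legacy fit. Depth limits ZNF503-AS2 in VM, at 4 to 28 counts a library, and ZNF503-AS1 throughout.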

Other observations

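Besides the members, the genes called between the libraries labelled ZNF503 and their controls in AM varied with the setting. With only the groups compared, the mitochondrial ribosomal RNA MT-RNR1 (-1.42, edgeR adjusted p = 0.00360) and the complement gene C7 (-0.77, 0.0287) were called lower. MT-RNR1 and MT-RNR2 were also called lower without a filter on low counts (-1.44 and -1.36). The genes that follow were called under settings chosen after seeing the data. With LHX2 and ZNF711 libraries as controls, NETO1, which encodes an auxiliary subunit of glutamate receptors, was called higher beside ZNF503 and ZNF703. NETO1 had 20.9 CPM in AM ZNF503 (SD 3.57, n = 3), against 9.64 in AM LHX2, 7.13 in AM ZNF711 and 12.5 in AM TRAC (SD 1.25, n = 3). Against TRAC in the planned comparison NETO1 was not called (0.75 on the log2 scale, edgeR adjusted p = 1). RELN, which encodes the secreted protein reelin, was called lower in AM ZNF503 with a replicate block within each protocol, with 95.1 CPM (SD 14.2) against 155 in AM TRAC (SD 43.0), 124 in AM LHX2 and 157 in AM ZNF711. In the planned comparison RELN had -0.70 (edgeR adjusted p = 1). ATF3, a stress-response factor, and VEGFA, a vascular growth factor, were called higher in that setting, with 85.4 against 53.5 CPM and 338 against 249 CPM in AM TRAC, but AM LHX2 had 91.8 CPM of ATF3 and 303 CPM of VEGFA. All of these genes were chosen after their values were seen.

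A second locus that GENCODE 29 names ZNF503 had 0 to 9 counts in a library, 55 in all, 20 of them in AM and 35 in VM, and was not used for any value of ZNF503.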
